A study of Mus musculus with 30 samples.

Results

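The C1q-like genes C1ql1, C1ql2 and C1ql3 and the cerebellin genes Cbln1, Cbln2, Cbln3 and Cbln4 were followed by name in a table of 34871 genes measured in the brains of 30 mice, and all 7 genes were found in it. C1ql2 and C1ql1 were chosen by their measured levels in mice lacking Tmem106b against wild type mice, and the other 5 genes were added as their relatives, so the values in that contrast are given as a description with no test. Tmem106b encodes a membrane protein of lysosomes and late endosomes. The mice were 8 months old and differed in Tmem106b genotype: 10 were Tmem106b +/+ (WT), 10 were Tmem106b +/- (HET) and 10 were Tmem106b -/- (KO). Within a genotype, cohort 1 supplied 6 mice and cohort 2 supplied 4, with equal numbers of females and males in both. The sources used here do not give the strain, the way the allele was made or what the cohorts are. RNA came from the cerebral hemispheres per the labels, and every library is 1 mouse. The RNA integrity number (RIN, a score of how intact the RNA is) averaged 9.40 in WT (SD 0.28), 9.23 in HET (SD 0.22) and 9.35 in KO (SD 0.49).

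C1q-like proteins and cerebellins are small secreted proteins that end in the globular domain first described in complement C1q, and they assemble into multimers in the gap between neurons. They act as synaptic organizers: released mostly from the presynaptic cell, they tie a presynaptic protein to a postsynaptic receptor and so help to form and keep the synapse. C1q-like proteins bind the adhesion receptor Adgrb3. Cerebellins bind neurexins on the presynaptic side and delta receptors, such as Grid1, on the postsynaptic side. In the mouse brain, C1ql2 and C1ql3 are known from the mossy fibres, the axons of dentate granule cells in the hippocampus, and Cbln1 is known from the granule cells of the cerebellum.

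Values are deposited log2 RPKM, which scale reads by gene length and library, further adjusted by conditional quantile normalization, in which a difference of 1 is a doubling. The values carry no read counts, so the depth of each library is unknown and precision was judged from the spread between mice. The labels held for Tmem106b itself: it had a mean log2 level of 9.17 in WT, 8.58 in HET and 7.53 in KO, with no overlap between any of the groups. Library medians over all genes lay between 2.82 and 2.91. Markers of cerebellar neurons were high in these libraries, with mean log2 levels of 10.7 for Car8 of Purkinje cells, 9.20 for Gabra6 of granule cells and 9.05 for Zic1, so the RNA held transcripts of the cerebellum beside those of the labelled hemispheres. In whole tissue, fewer cells of a type and less RNA per cell cannot be told apart.

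The genes differed widely in level. Over the 30 brains the mean log2 level was 9.80 for Cbln1, 9.80 for Cbln3, 8.31 for C1ql3, 7.08 for Cbln2, 6.29 for Cbln4, 6.20 for C1ql2 and 5.83 for C1ql1. Cbln1 and Cbln3 were above 97.2% of the 23695 genes kept for testing, and C1ql1, the lowest of the 7, was above 56.3%. Most steps in this order were larger than the spread. Cbln3 exceeded C1ql3, C1ql3 exceeded Cbln2, and Cbln2 exceeded Cbln4 in 30 of 30 brains. Cbln1 and Cbln3 did not differ beyond their spread (Cbln1 higher in 16 of 30 brains), nor did Cbln4 and C1ql2 (Cbln4 higher in 20 of 30). By genotype, Cbln4 was the higher of that last pair in 3 of 10 WT, 8 of 10 HET and 9 of 10 KO brains. C1ql2 was above C1ql1 in 28 of 30 brains, and both exceptions were KO brains. The fourth C1q-like gene, C1ql4, was low, with a mean log2 level of 3.01 in WT, 3.03 in HET and 3.05 in KO, and is counted among the other C1q-domain genes.

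**Figure D1:**
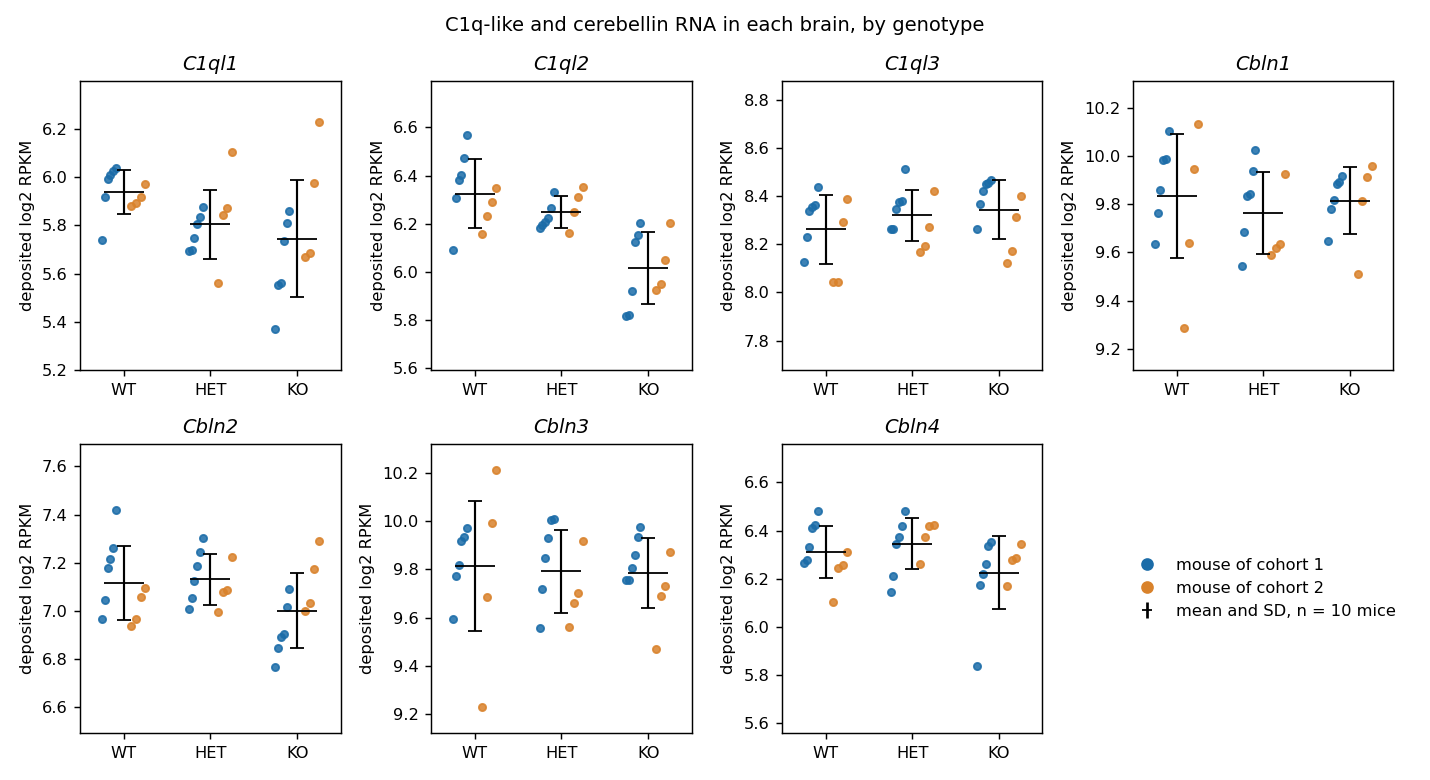
Each panel plots the deposited log2 RPKM of 1 gene (vertical axis) in every mouse by genotype, coloured by cohort, with the mean and SD over 10 mice. The vertical axes differ in position. C1ql2 has a mean of 6.02 in KO against 6.33 in WT, the C1ql1 points spread out in KO, and the genotypes overlap for every gene.

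C1ql2 was the member with the widest gap between genotypes. It is made by dentate granule cells, where its protein gathers postsynaptic kainate receptors at the mossy fibre synapse together with neurexins. The annotation places it on chromosome 1, at 120340582 to 120343174 of mm10 on the forward strand, with no overlapping gene in the table. Its promoter is shown because this gene carries the largest genotype difference of the 7. The stretch is the 250 bases before the RefSeq transcript start at chr1:120340332-120340581 of GRCm38.p6 on the forward strand, 5′ to 3′, in lower case with the E-box in capitals:

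C1ql2: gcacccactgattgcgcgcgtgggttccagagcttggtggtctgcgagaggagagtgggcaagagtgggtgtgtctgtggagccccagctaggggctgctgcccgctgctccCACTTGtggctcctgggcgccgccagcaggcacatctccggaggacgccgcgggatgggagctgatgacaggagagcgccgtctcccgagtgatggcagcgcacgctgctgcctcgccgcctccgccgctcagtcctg

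The E-box, CANNTG on either strand, is the short motif that basic helix-loop-helix factors recognise. It occurs once in this window, with its first base 138 bases before the start, and 66.2% of 32851 RefSeq promoter windows of the same length hold at least 1. The letters TCACGTGA (0.785% of windows), GGGCGG (32.7%), TGACGTCA (1.55%) and TATAAA (12.4%) were not found in it on either strand. Its content of G and C was 68.8%, against a median of 52.4% over all windows.

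In WT brains the C1ql2 log2 level ran from 6.09 through a median of 6.33 to 6.57. In HET brains it ran from 6.16 through 6.23 to 6.35, and in KO brains from 5.82 through 5.999 to 6.20. All 10 KO brains lay below the WT mean, 6 of them below every WT brain, and 8 of 10 WT brains lay above every KO brain, so the ranges overlapped only at their ends. HET brains fell inside the WT range and varied least, with an SD of 0.07 against 0.14 in WT and 0.15 in KO. The KO level was lower than WT by a log2 difference of -0.31 ± 0.05 (SE, n = 10 against 10, from limma's linear model with sex, cohort and RIN as terms), which is 80.4% of the WT level. The KO minus HET difference was -0.22 ± 0.05 and the HET minus WT difference was -0.10 ± 0.05. By cohort and sex, which split the same brains that chose the gene and so are no repeat of the difference, the mean log2 level was 6.37 in WT and 6.01 in KO of cohort 1, 6.26 and 6.03 in cohort 2, 6.31 and 5.98 in females, and 6.34 and 6.05 in males.

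Dentate granule cell markers were set beside C1ql2. They were read in whole tissue that also held cerebellar RNA, so their levels need not come from dentate granule cells alone. None of 12 markers passed the test in KO against WT, and their median log2 difference was -0.05, with 10 of 12 below 0, beside a median of 0.01 and 46.7% below 0 over all genes. Prox1, the transcription factor that keeps granule cell identity, had a log2 difference of -0.05 ± 0.04. Calb1, the calcium buffer calbindin, had -0.09 ± 0.04, and Trpc6 had the largest fall, -0.18 ± 0.08 (limma adjusted p = 0.326). Dsp, the desmosomal protein desmoplakin enriched in granule cells, had 0.31 ± 0.10 (limma adjusted p = 0.139). Its mean log2 level of 2.40 was the lowest of the 12. The summed log2 level of the list ran from 10.3 to 10.5 in WT, from 10.3 to 10.5 in HET and from 10.2 to 10.4 in KO, so the genotypes overlapped. That sum, taken on the linear scale, rests mostly on Calb1 (mean log2 level 9.56) and Stxbp6 (8.06). The mean of the log2 levels, which weighs all 12 alike, was 5.14 in WT (SD 0.06), 5.18 in HET (SD 0.04) and 5.11 in KO (SD 0.05). Within genotypes, C1ql2 rose and fell with the mean of these markers only weakly over the 30 brains (Pearson r = 0.38, permutation p = 0.052, adjusted p = 0.193; Spearman rho = 0.41, permutation p = 0.0354, adjusted p = 0.129; r = 0.31 without the 2 brains farthest from the median). Their part in the C1ql2 difference was not tested.

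**Figure D2:**
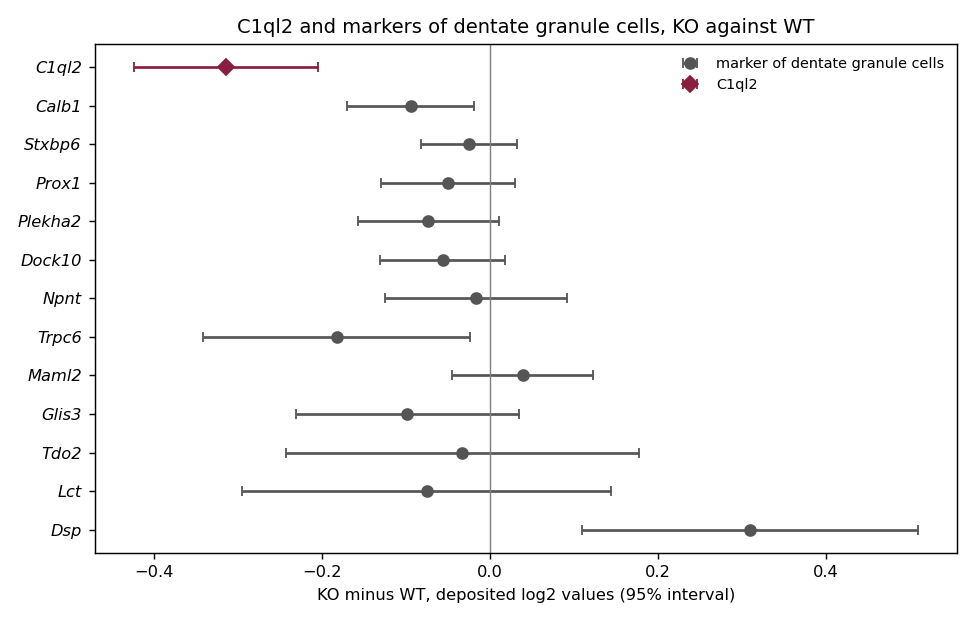
The horizontal axis gives the KO minus WT difference of deposited log2 values with its 95% interval from the linear model, for C1ql2 and for 12 markers of dentate granule cells. C1ql2 lies at -0.31, Prox1 at -0.05, Trpc6 at -0.18 and Dsp, the marker of lowest level, at 0.31. Of the 12 markers, 10 lie below 0.

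C1ql1 had a lower mean and a wider spread in mice with fewer copies of Tmem106b. The gene is known from the climbing fibres of the inferior olive, where its protein works through Adgrb3 on Purkinje cells, and from oligodendrocyte precursors. It lies on chromosome 11, at 102939264 to 102946688 of mm10 on the reverse strand. In WT brains the C1ql1 log2 level ran from 5.74 through a median of 5.95 to 6.04. In HET brains it ran from 5.56 through 5.82 to 6.11, and in KO brains from 5.37 through 5.71 to 6.23. The highest of all 30 brains was a KO brain and 6 other KO brains lay below every WT brain, so KO brains stood on both sides of the WT range. That highest brain, KO replicate 7, had the lowest RIN of all, 8.5, and the highest HET brain, replicate 8, had 8.8. KO replicate 9, with a RIN of 8.9, was low at 5.67. The RIN term of the model for C1ql1 was -0.11 ± 0.09 log2 per unit of RIN (limma adjusted p = 0.750) and did not pass. It was 0.02 without KO replicate 7. Whether RNA quality bears on the spread between KO brains was not tested. Without KO replicate 7 the KO minus WT log2 difference was -0.25. The SD between mice was 0.09 for WT, 0.14 for HET and 0.24 for KO. The KO minus WT log2 difference was -0.20 ± 0.07 and the KO minus HET difference was -0.05 ± 0.07. The mean log2 level was 5.95 in WT and 5.65 in KO of cohort 1, and 5.92 and 5.89 in cohort 2. The test of the difference between cohorts gave 0.26 ± 0.14 (limma interaction, adjusted p = 0.636).

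Oligodendrocyte genes moved with genotype in the same brains. Of 8 myelin genes, 7 fell in KO against WT, beside 0.722% of all genes called lower, with a median log2 difference of -0.19 over the list, among them Mbp (-0.15, limma adjusted p = 0.00311) and Cnp (-0.29, limma adjusted p = 7.76e-06). Of 11 precursor and lineage genes measured, the lineage factors Olig1 (-0.25, limma adjusted p = 0.00137) and Sox10 (-0.34, limma adjusted p = 0.000613) fell. The precursor receptor Pdgfra had a log2 difference of -0.10 ± 0.03 (limma adjusted p = 0.145) and did not pass. The summed log2 level of the precursor list ran from 10.9 to 11.1 in WT, 10.8 to 11.1 in HET and 10.8 to 10.95 in KO, and that of the myelin list from 13.4 to 13.6, 13.3 to 13.5 and 13.2 to 13.4. Within genotypes C1ql1 followed neither list closely over the 30 brains: with precursors Pearson r was 0.20 (permutation p = 0.233, adjusted p = 0.606) and Spearman rho 0.21 (permutation p = 0.265, adjusted p = 0.689), and with myelin r was 0.21 (permutation p = 0.264, adjusted p = 0.624) and rho 0.12 (permutation p = 0.545, adjusted p = 0.833). Without the 2 farthest brains r was 0.10 and 0.05. Whether the oligodendrocyte genes bear on C1ql1 or C1ql2 was not tested.

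C1ql3 was the most abundant C1q-like gene and pointed the other way. Its protein is made by many excitatory neurons of the forebrain, among them dentate granule cells, where it acts together with C1ql2. It lies on chromosome 2, at 13003457 to 13011806 of mm10 on the reverse strand. The C1ql3 log2 level ran from 8.04 through a median of 8.31 to 8.44 in WT, from 8.17 through 8.31 to 8.51 in HET and from 8.12 through 8.38 to 8.47 in KO. The genotypes overlapped over most of their ranges, and 8 of 10 KO brains lay above the WT mean. The KO minus WT log2 difference was 0.08 ± 0.04 and the HET minus WT difference 0.04 ± 0.05.

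C1ql3 also differed between the cohorts. This comparison did not enter the choice of the genes. Its level was lower in cohort 2 by a log2 difference of -0.14 ± 0.04 (limma adjusted p = 0.0115, n = 12 against 18), and the means of cohort 1 and cohort 2 were 8.31 and 8.19 in WT, 8.36 and 8.26 in HET, and 8.40 and 8.25 in KO. C1ql3 was 1 of 7 members called between cohorts, beside 17.5% of all genes called in either direction and 9.42% called lower, so that share is near the background. The other 6 had differences between -0.11 for Cbln3 and 0.07 for C1ql1. In females alone the C1ql3 difference was -0.14 (adjusted p = 0.210) and in males alone -0.15 (adjusted p = 0.127), both by limma on 15 mice, and neither passed. A pair of unnamed transcripts that overlap C1ql3 in the annotation moved with it. RP23-415C3.5 followed C1ql3 within genotypes with r = 0.92 over 30 libraries and was lower in cohort 2 by -0.31 ± 0.07 (limma adjusted p = 0.00226), and RP23-415C3.6 had r = 0.79 and a difference of -0.12 ± 0.06 (limma adjusted p = 0.161). The overlap was taken from the spans of the genes, and exons were not compared. The strand setting of the counting is also unknown. Whether reads of C1ql3 and of these transcripts were kept apart is thus not known, and the C1ql3 value is uncertain to that extent. Likewise C1ql1 lies within the span of the long transcript Gm26668, and whether the 2 share reads was not tested. Gm26668 had r = -0.23 with C1ql1 within genotypes over 30 libraries. It was lower in cohort 2 by -0.30 ± 0.05 (limma adjusted p = 0.000222) and differed by 0.04 ± 0.06 between KO and WT.

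**Figure D3:**
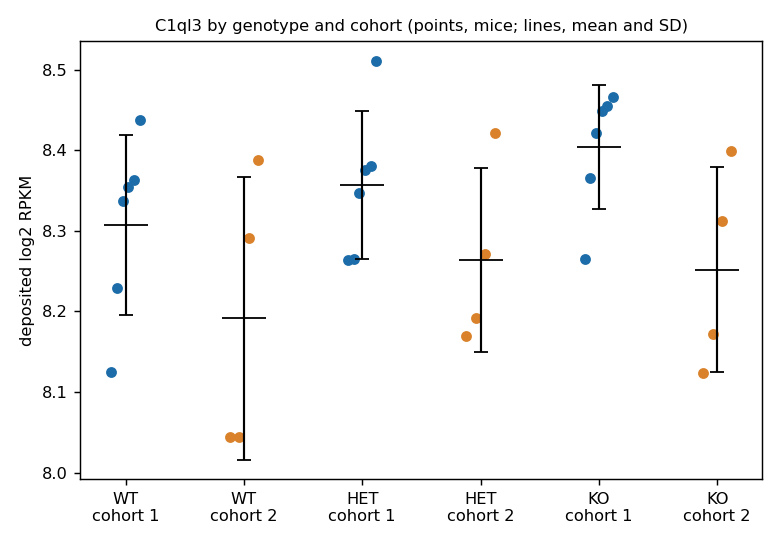
The vertical axis gives the deposited log2 RPKM of C1ql3 in each mouse, the horizontal axis the genotype and cohort (6 mice of cohort 1 and 4 of cohort 2 per genotype), with lines for the mean and SD. In each genotype the mean of cohort 2 is below that of cohort 1, by 0.12 in WT, 0.09 in HET and 0.15 in KO.

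The cerebellins showed smaller genotype differences than C1ql2. Cbln2, whose protein joins neurexins to delta receptors at forebrain synapses, lies on chromosome 18 of mm10. Its log2 level ran from 6.94 through a median of 7.08 to 7.42 in WT, from 6.997 through 7.11 to 7.30 in HET and from 6.77 through 7.01 to 7.29 in KO. Of 10 KO brains, 4 lay below every WT brain, and the KO minus WT log2 difference was -0.12 ± 0.06. All 4 of those brains were of cohort 1, in which the means were 7.18 in WT and 6.92 in KO. In cohort 2 the order was the reverse, with 7.02 in WT and 7.12 in KO. The difference between the cohorts was 0.36 ± 0.11 on the log2 scale (95% interval 0.14 to 0.59) and did not pass across all genes (limma interaction, adjusted p = 0.301).

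Cbln4, whose protein binds neurexins and the netrin receptor Dcc, lies on chromosome 2 at 172036233 to 172043466 of mm10 on the reverse strand. Its log2 level ran from 6.10 through a median of 6.29 to 6.48 in WT, from 6.15 through 6.37 to 6.48 in HET and from 5.84 through 6.27 to 6.35 in KO. A single KO brain, replicate 8, lay below every WT brain. The KO minus WT log2 difference was -0.09 ± 0.05, and without that brain it was -0.05.

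Cbln1 and Cbln3 did not separate the genotypes. Cbln1 is the cerebellin that granule cells release onto Purkinje cells, and Cbln3 is a partner that is secreted only in complexes with it. Cbln1 lies on chromosome 8, at 87468854 to 87472592 of mm10, and Cbln3 on chromosome 14, at 55878920 to 55884256, both on the reverse strand. The Cbln1 log2 level ran from 9.29 through a median of 9.90 to 10.1 in WT, from 9.54 through 9.76 to 10.0 in HET and from 9.51 through 9.85 to 9.96 in KO. The Cbln3 log2 level ran from 9.23 through 9.87 to 10.2 in WT, from 9.56 through 9.78 to 10.0 in HET and from 9.47 through 9.78 to 9.97 in KO. Both KO ranges lay inside the WT range, and the KO minus WT log2 differences were -0.02 ± 0.08 for Cbln1 and -0.03 ± 0.08 for Cbln3, with 95% intervals from -0.19 to 0.14 and from -0.20 to 0.14.

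**Figure D4:**
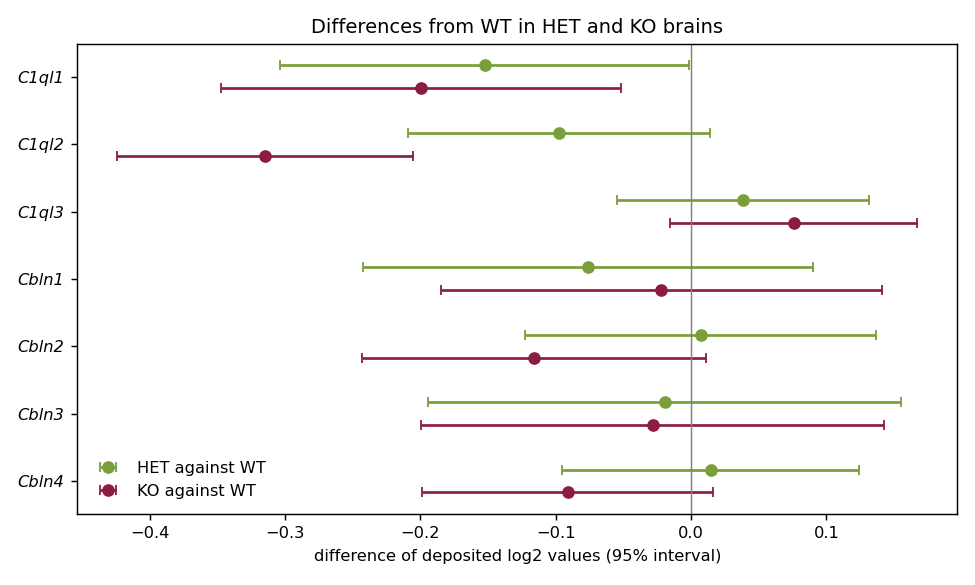
The horizontal axis gives the difference of deposited log2 values from WT with its 95% interval from the linear model, for HET and for KO. The KO value is -0.31 for C1ql2 and -0.20 for C1ql1, and the values of the other 5 genes lie between -0.12 and 0.08.

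Brains with much Cbln1 had much Cbln3. With the mean of each genotype removed, their log2 levels went together over the 30 brains with Pearson r = 0.90 (permutation p = 1e-05, the smallest that 100000 resamples can give; adjusted p = 8.7e-05) and Spearman rho = 0.80 (permutation p = 1e-05, adjusted p = 8.7e-05). The relation was r = 0.83 without the 2 brains farthest from the median, 0.81 within cohort 1 and 0.94 within cohort 2. Among 21 pairs of members it was the only pair whose Pearson r passed, in a family of 26 relations. By rank, C1ql2 with Cbln4 (rho = 0.53, permutation p = 0.00405, adjusted p = 0.0263) and Cbln2 with Cbln4 (rho = 0.49, permutation p = 0.00957, adjusted p = 0.0498) also passed, while their Pearson r of 0.34 (permutation p = 0.0965, adjusted p = 0.279) and 0.49 (permutation p = 0.0105, adjusted p = 0.0683) did not. Without the 2 farthest brains these r were 0.30 and 0.42. With sex, cohort and RIN also removed, r was 0.23 and 0.48 and rho 0.45 and 0.41, values that were not tested. The C1q-like pair C1ql1 and C1ql2 had r = 0.40 (permutation p = 0.044, adjusted p = 0.191) and rho = 0.44 (permutation p = 0.0262, adjusted p = 0.114), with r = 0.46 without the 2 farthest brains, 0.44 within cohort 1 and 0.50 within cohort 2.

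Cbln1 and Cbln3 also went with the amount of cerebellar RNA in a library. Against the mean log2 level of 11 cerebellar markers, none of them a member, Cbln1 had r = 0.90 and rho = 0.81 and Cbln3 had r = 0.89 and rho = 0.82 (permutation p = 1e-05 and adjusted p = 8.7e-05 for each). Without the 2 farthest brains r was 0.84 and 0.85, and within cohorts 1 and 2 it was 0.86 and 0.92 for Cbln1 and 0.79 and 0.94 for Cbln3. WT replicate 10, the brain lowest in Cbln1 at 9.29 and in Cbln3 at 9.23, was the lowest in these markers too. None of the 11 cerebellar markers passed in KO against WT (median log2 difference -0.01), and they did not lie together: Car8 and Pcp2 of Purkinje cells both had -0.18 (limma adjusted p = 0.304 and 0.131), Ppp1r17 had -0.14 (limma adjusted p = 0.391), Cdh15 had -0.18 (limma adjusted p = 0.344), and Gabra6 and Zic1 had 0.04 and 0.02. Their summed log2 level ran from 11.8 to 12.5 in WT, 12.1 to 12.4 in HET and 11.9 to 12.3 in KO. The SD within genotypes was 0.20 for both cerebellins, above that of 97.0% and 97.4% of the 500 genes nearest to each in level. It was 0.13 for C1ql2 and 0.12 for Cbln4, above 73.5% and 74.5% of theirs. What part of the spread in Cbln1 and Cbln3 comes with the share of cerebellum in the dissected tissue was not tested further.

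**Figure D5:**
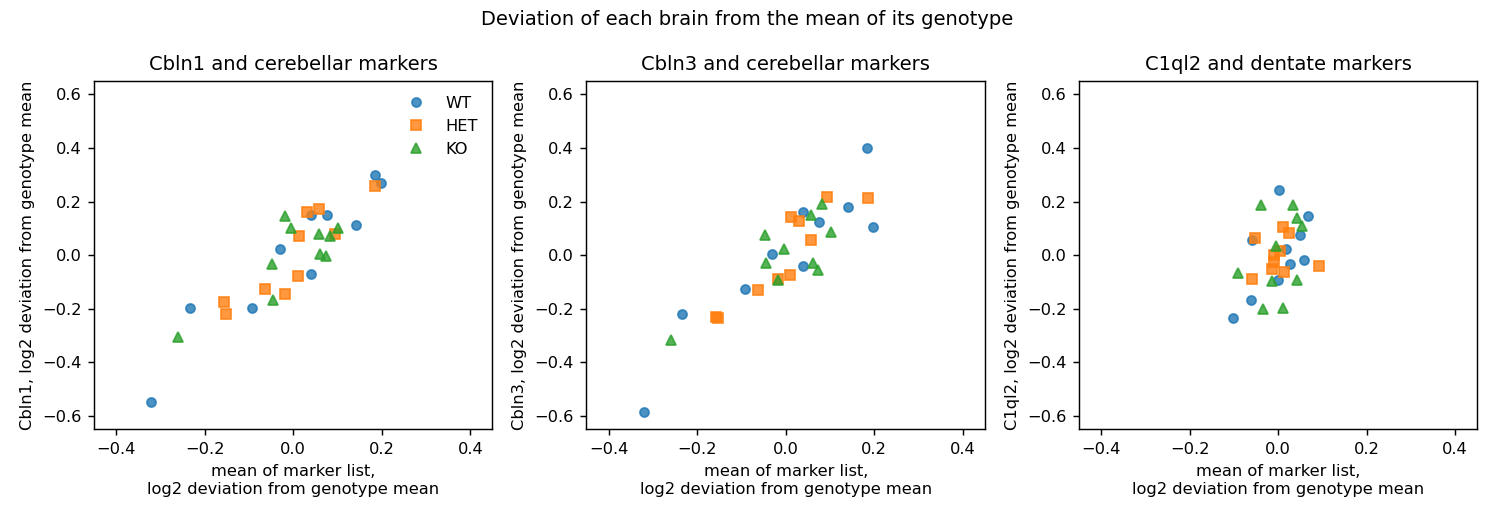
Each point is 1 brain, with the deviation of a gene from its genotype mean (log2, vertical axis) against that of the mean of a marker list (log2, horizontal axis). Cbln1 (r = 0.90) and Cbln3 (r = 0.89) rise with the cerebellar markers, with WT replicate 10 at the lower left, while C1ql2 against the dentate markers (r = 0.38) forms a looser cloud.

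Cbln1 and Cbln3 both rose and fell with the cerebellar markers. The RefSeq promoters used for C1ql2 held no entry for Cbln1, and the promoter of Cbln3 is printed. The stretch is the 250 bases before its RefSeq start at chr14:55884257-55884506 of GRCm38.p6 on the reverse strand, 5′ to 3′, with the E-box in capitals:

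Cbln3: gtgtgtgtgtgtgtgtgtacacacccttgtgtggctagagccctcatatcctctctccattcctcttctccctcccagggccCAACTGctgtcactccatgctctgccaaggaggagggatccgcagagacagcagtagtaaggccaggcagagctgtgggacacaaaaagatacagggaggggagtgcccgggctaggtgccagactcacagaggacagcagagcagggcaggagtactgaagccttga

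It also held a single CANNTG, with its first base 168 bases before the start, and none of the other 4 motifs searched. Its content of G and C was 57.6%, lower than the 68.8% of the C1ql2 window. The read length and the way of counting are not known, so how far reads of near-identical stretches were shared between members was not tested. The longest stretch shared exactly by their transcripts was 38 bases, between C1ql2 and C1ql3. C1ql1 shared 26 bases with C1ql3 and 24 with C1ql2, Cbln1 shared 21 with Cbln3, and no C1q-like gene shared more than 15 with a cerebellin.

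Loss of 1 copy of Tmem106b did not move any of the 5 members added as relatives past the test. In HET against WT, 0 of these 5 were called by limma, beside 1 of 23695 genes (0.00422%). The 1 gene called was Tmem106b itself, and 1497 genes had an unadjusted p under 0.05. This comparison shares the WT brains with the one on which C1ql2 and C1ql1 were chosen, so both have values here with no test. The log2 differences were -0.15 ± 0.07 for C1ql1, -0.10 ± 0.05 for C1ql2 and between -0.08 and 0.04 for the other 5. In KO against WT, 237 genes (1.00%) were called, 0.722% of all genes lower. Since this contrast chose C1ql2 and C1ql1, no call is given there for the members. In KO against HET, 28 genes (0.118%) were called. That comparison shares the KO brains with the one that chose the genes, so members have values there with no test.

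No difference between the sexes passed for these genes. In males against females 0 of 7 members were called by limma, beside 0.333% of all genes. The widest difference was -0.11 ± 0.06 for Cbln1 (95% interval -0.24 to 0.02; adjusted p = 0.501), and C1ql2 had 0.04 ± 0.04. The KO minus WT difference was also compared between cohorts and between sexes. None of the 14 tests passed, beside 0.0338% of genes for cohorts and 0 of 23695 genes for sexes, and 1 of the 14, that of Cbln2 between cohorts, had an unadjusted p under 0.05. For C1ql2 the difference between cohorts was 0.12 ± 0.11 (limma adjusted p = 0.808) and that between sexes 0.01 ± 0.11 (limma adjusted p = 0.992).

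None of 11 genes for receptors and partners of these proteins passed in KO against WT, and their median log2 difference was -0.01. Adgrb3, the receptor of C1q-like proteins, had a difference of -0.02 ± 0.03, and its relatives Adgrb1 and Adgrb2 had 0.01 ± 0.03 and -0.01 ± 0.02. The neurexin genes Nrxn2 and Nrxn3 had -0.02 ± 0.02 and 0.01 ± 0.02, and the kainate receptor genes Grik2 and Grik4 had 0.02 ± 0.02 and -0.01 ± 0.03. The delta receptor gene Grid1 had -0.02 ± 0.03. Dcc, the netrin receptor that binds Cbln4, had -0.10 ± 0.08 between KO and WT and was lower in cohort 2 by -0.24 ± 0.07 (limma adjusted p = 0.0169), 1 of 11 called between cohorts beside 17.5% of all genes.

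Other organizers and other proteins with a C1q domain were read in the same way. None of 21 other synaptic organizers, among them neuroligins, Lrrtm and Slitrk genes, passed in KO against WT (median log2 difference 0.02). Nptx2, a secreted pentraxin that gathers AMPA receptors and is induced by neuronal activity, had -0.20 ± 0.10 (limma adjusted p = 0.449). Of 22 other C1q-domain genes, 20 were abundant enough to test and 1 rose, beside 0.279% of all genes called higher. It was C1qb, a chain of complement C1q made by microglia (0.18 ± 0.04, limma adjusted p = 0.0158). C1qc, another chain of the same protein, had 0.11 ± 0.05 (limma adjusted p = 0.355). None of 5 microglial markers passed. Of the remaining lists, none of 9 hippocampal pyramidal, 9 thalamic, 5 neuronal or 4 choroid plexus genes passed in KO against WT, while 1 of 5 astrocyte genes rose and 1 of 4 endothelial genes fell. The astrocyte gene was Gfap (0.22, limma adjusted p = 0.00967), and the other 4 had differences between -0.08 for Slc1a3 and 0.02 for Aqp4. The endothelial gene was the receptor gene Tek (-0.21, limma adjusted p = 0.0461). The tight junction gene Cldn5 had -0.44 ± 0.11 (limma adjusted p = 0.0567) and Pecam1 had -0.17 ± 0.05 (limma adjusted p = 0.0927). The mean log2 level of the endothelial list was 6.74 in WT and 6.52 in KO. In cohort 1 it ran from 6.72 to 6.83 in WT and from 6.26 to 6.48 in KO. In cohort 2 it ran from 6.65 to 6.75 in WT and from 6.53 to 6.92 in KO, so the lower level was seen in cohort 1. The KO minus WT difference of cohort 2 minus that of cohort 1 had a median of 0.32 over the 4 genes. In that limma interaction 1 of the 4 was called, higher, beside 0.0338% of all genes called in either direction.

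The genes whose levels went most closely with each member were found by Pearson r over the 30 libraries with the mean of each genotype removed, a description that rests on shared libraries. For Cbln1 they were Kank2 (r = 0.90), Cbln3 (0.90) and Barhl2 (0.88), and for Cbln3 they were Cbln1 (0.90), Kank2 (0.89) and Ppfia4 (0.89). For C1ql3, after its overlapping transcript RP23-415C3.5, they were Mink1 (0.86) and Sowaha (0.85). Cbln2 went with Nptx2 (0.79), Etv5 (0.69) and Slc6a13 (0.68). The values were lower for the remaining members: Gm15856 (0.71), RP23-118N13.1 (0.70) and Plk1 (0.69) for C1ql1, Amotl1 (0.67), Sdc2 (0.67) and Gm15873 (0.64) for Cbln4, and Gm2546 (0.61), Cox10 (0.60) and Tprgl (0.59) for C1ql2. C1ql2, the member with the widest genotype gap, thus had the weakest leading match of the 7. Its matches were unstable: with sex, cohort and RIN also removed, its leading 3 became Gm26677 (0.67), Srprb (0.65) and Frem3 (0.63). Gm2546 was near the floor, with a mean log2 level of 1.02. Each match is the top of all genes kept, and none was tested.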

How the data were processed

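RNA-seq of 30 mouse brains was used. Alignment used TopHat2 2.0.12, Bowtie 1.1.0 and mm10, per the submitters' processing notes. How genes were counted, with which annotation and strand, is not given in the sources used here. A single table deposited by the authors holds log2 RPKM values after conditional quantile normalization, per the file headers; no pseudocount was added. Genotype, sex, cohort and RIN came from the labels.

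Genes with a mean above 0 were kept (23695). All were fitted together with limma 3.58.1 in R 4.3.3 (linear model on genotype, sex, cohort and RIN over 30 libraries, intensity trend, two-sided, Benjamini-Hochberg over all genes kept); a gene was called at an adjusted p under 0.05. The model was tested on simulated data. Relations used 100000 two-sided permutations over mice. Promoters came from RefSeq (GRCm38.p6). Named genes were the 7 members, Tmem106b, C1ql4, the receptors and partners (some are not reported here), the listed genes called in a genotype contrast with up to 6 others per list by level, and the 3 genes most like each member. Dsp, Trpc6, Ppp1r17 and Cdh15 were named outside this rule. Of 138 listed genes, 1 was not matched by symbol or identifier (5 were matched by identifier). Members and lists were chosen with earlier results of these data known.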

Additional observations from a re-analysis of the deposited data

Results flagged for a closer look

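In 2 of 21 groups (7 genes by 3 genotypes, 10 mice each) a single brain stood far from the others of its genotype, which chance gives in about 1 of 20 groups. C1ql1 in WT replicate 6 had a log2 level of 5.74, the lowest of WT, and the next WT brain had 5.88. The gap was 0.467 of the range, just past the limit of 0.466. Cbln4 in KO replicate 8 had a log2 level of 5.84, and the next KO brain had 6.17, a gap of 0.65 of the range. That mouse was a female of cohort 1 with a RIN of 9.8. No difference between cohorts or sexes in the KO minus WT value passed among 14 tests of the members.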

How the results depend on the processing

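The model was refitted under 12 other settings and with each of the 30 libraries left out in turn. C1ql2 stayed lower in KO than WT in all of them, from -0.34 to -0.29 (log2) with a library left out and from -0.36 (cohort 1 only) to -0.25 (cohort 2 only) elsewhere. As this contrast chose C1ql2, these values are a description. C1ql1 ran from -0.31 to -0.05. C1ql3 stayed lower in cohort 2 with each library left out (-0.16 to -0.12, limma adjusted p 0.0042 to 0.0385) but missed the threshold in females only (-0.14) and males only (-0.15), fits with fewer mice. Cbln2, KO against WT, was -0.26 in cohort 1 and 0.10 in cohort 2. Of 1960 alternative values of members, 103 differed in sign from the value reported, none of them a called value, and 2, both of C1ql3 between cohorts, lost their call (no call is counted here for KO against WT or HET).

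Counts of called genes moved more. For KO against WT (237) the count was 144 with genotype as the only term, 114 with only both genotypes in the fit, 482 with cohort 1 alone, 4 with cohort 2 alone, 13 with females and 15 with males, and 138 (without WT replicate 4) to 388 (without KO replicate 10) with a library left out. For HET against WT (1) it was 4 with genotype only, 2 with a pseudocount of 1 added on the linear scale, and 1 to 3 with a library left out. For KO against HET (28) it was 12 with cohort 1, 1 with cohort 2, 3 with females, 2 with males, and 24 to 44 with a library left out. For cohort (4150) it was 100 in females, 1429 in males, and 2904 to 4444. For sex (79) it was 41 without an intensity trend, 9087 without the filter on low values, 24 in cohort 1, 17 in cohort 2, and 39 to 141. For KO against WT between cohorts (8) it was 15 with only both genotypes, 2 without a trend, 2 in females, 0 in males, and 0 (without KO replicate 10) to 14. Between sexes it was 0 throughout. The subsets held fewer mice, and the cause of these changes in count was not tested. No paired analysis was possible because the labels give no replicate numbers, and those used here only name mice. The read depth is unknown, so counting error cannot be given.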
